A study of Homo sapiens with 2 samples.

Results

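The genes described here remodel and organise the extracellular matrix. They comprise the proteases that cut it, the inhibitors that hold these proteases back, the enzymes that crosslink it, and the glycoproteins and proteoglycans that fill it. In gliomas the matrix is rich in hyaluronan and in proteoglycans that bind it, and tumor cells cut and rebuild it as they move through brain tissue. Metalloproteinases and their TIMP inhibitors, the plasminogen activators and the lysyl oxidases are secreted by many tumor and stromal cells, and matricellular proteins such as the CCN family tune adhesion and growth factor signals more than they build structure.

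A list of 56 genes was given by name, and all 56 had at least 1 probe set with a single gene symbol on the array, 149 probe sets in all among 54613 that are not controls. RNA came from U87 cells, an established human glioblastoma line, transfected with HOXD9 siRNA-2 or with a control siRNA. Both siRNAs were used at 50 nM and RNA was taken on Day 2. Each condition had 1 array, so no SD, p-value or test between conditions can be given, and every ratio compares 2 arrays. The array, Affymetrix U133 Plus 2.0, reads a transcript with 1 or more groups of short probes, each called a probe set and each giving a linear signal intensity. Signals of different probe sets are not on a common scale and are compared here between arrays only.

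A probe set was kept when its mean signal on both arrays reached 19.8, the median of all probe sets. Background was taken as 18.4, the highest signal among 27 probe sets for Bacillus subtilis control transcripts, read on the HOXD9 siRNA array; on the control siRNA array they reached 11.4. A typical probe set read lower with HOXD9 siRNA-2, and centering each array on its own median adds 0.30 to every log2 ratio. HOXD9 itself was too dim for its knockdown to be checked, since of its 4 signals only the 19.7 of 1 probe set on the control siRNA array lay above background (5.58 with HOXD9 siRNA-2, at least 1.07-fold lower). Of the glioma line markers, VIM, CD44 and NES lay above background on both arrays, whereas the astrocytic GFAP, S100B and FABP7 did not. Among the markers of other cell types, the leukocyte markers read here, PTPRC and AIF1, stayed within background, as did VWF, CDH5, CDH1 and RBFOX3. PECAM1 (40.3 with HOXD9 siRNA-2 and 43.4 with control siRNA) and EPCAM (23.8 and 28.2) were above it on 1 probe set each. The neuronal marker SYT1 gave 30.3 with HOXD9 siRNA-2 and 91.8 with control siRNA, and its part in the results was not tested.

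In U87 cells most of the matrix genes gave nearly the same signal with HOXD9 siRNA-2 as with control siRNA. Of the 56 genes, 49 had a probe set above the filter, and on its brightest one none was lower and none was higher by more than 2-fold, the threshold of the study. Over all 11624 genes above the filter, 4.95% were lower and 0.516% higher, that is 575 and 60 genes. Once the arrays were centered on their medians, none of the 49 was past 2-fold either, while 268 genes (2.31%) were lower and 136 (1.17%) higher. The log2 ratios of the 49 genes ran from -0.84 for ADAMTS5 to 0.40 for CCN2, or from -0.54 to 0.70 after centering on the median. As deposited, 44 of them (89.8%) lay within 0.5 of 0, against 74.1% of all genes, and where 0 lies depends on the array scale. The median of the 49 genes was -0.10 and that of all genes -0.25. The sign of the matrix gene median depends on the array scale, since it was 0.20 after centering on the median, 0.17 with one trimmed mean, 0.12 after quantile normalization and 0.12 after removal of a loess trend. Of the 49 ratios, 35 were negative as deposited and 10 after centering, so a value between -0.30 and 0 gives no direction here. The matrix genes lay above the median of all genes in 38 of 49 cases as deposited, in 34 after quantile normalization and in 33 after loess.

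All genes above the filter were also split by signal into 3 classes of like size, because dim probe sets scatter more. Of the 49 genes, 29 fell in the brightest class, where 1.63% of genes were past 2-fold and the median log2 ratio of all genes was -0.20, against -0.13 for the 29. The dimmest class held 11 of the 49, with a median of 0.00 against -0.31 for all genes there, and 11.8% of all genes in that class were past 2-fold. None of the matrix genes was past 2-fold in any class.

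**Figure D1:**
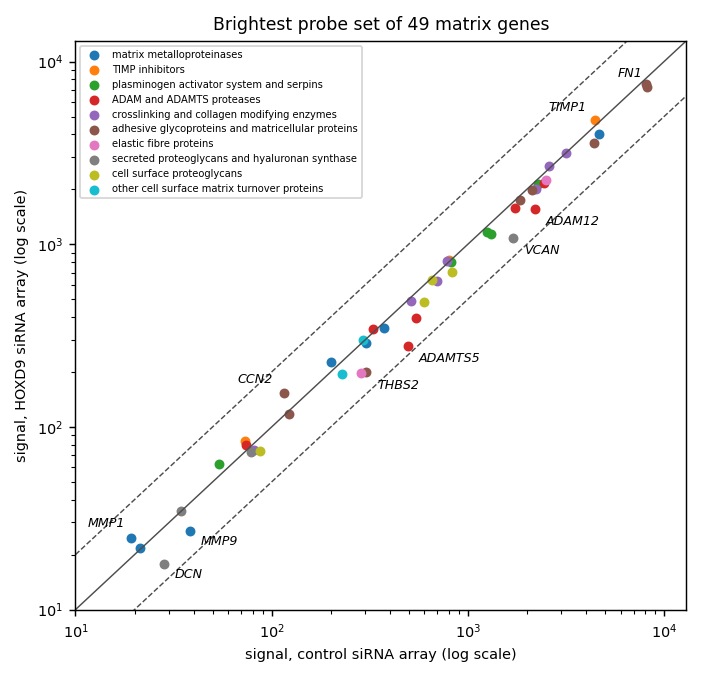
The signal of the brightest probe set of each of 49 matrix genes on the HOXD9 siRNA array (y axis, log scale) is plotted against that on the control siRNA array (x axis, log scale), colored by role. The solid line marks equal signals and dashed lines 2-fold, and all 49 points lie between the dashed lines, with ADAMTS5 nearest to the lower one.

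The metalloproteinases cut collagens, gelatins and other matrix proteins, and all 7 on the list passed the filter with a median log2 ratio of -0.06. MMP2, a gelatinase, gave signals of 4014 with HOXD9 siRNA-2 and 4650 with control siRNA (log2 ratio -0.21). MMP14, the membrane-bound enzyme that activates pro-MMP2, gave 349.7 and 376 on its brightest probe set. Its 4 probe sets had log2 ratios of -0.35 to 0.49, so they did not share a sign. MMP3, stromelysin-1, gave 226 with HOXD9 siRNA-2 and 200.3 with control siRNA, a log2 ratio of 0.17. MMP16, another membrane-bound member, stood at -0.06 and ranged from -0.67 to 0.13 over 4 probe sets. The other 3 were dim. MMP1, the interstitial collagenase, gave 24.7 and 19.3 (0.36), MMP7 21.7 and 21.2 (0.03) and MMP9, the second gelatinase, 27.0 and 38.2 (-0.50). As a description of scatter on these 2 arrays, the log2 ratios of probe sets of one matrix gene were compared. Their pooled SD was 0.66 log2 units where the mean signal was under 75.7 (5 genes) and 0.21 where it was higher (22 genes). The 0.66 comes largely from a TIMP3 probe set at -1.85, which read 10.4 on the HOXD9 siRNA array, under the background of 18.4. It is thus no measure of dim probe sets in general. Probe sets are no replicates of a condition, so neither SD is an error of the ratios.

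The inhibitors gave near-equal signals on their brightest probe sets. TIMP1 gave 4792 with HOXD9 siRNA-2 and 4473 with control siRNA, a log2 ratio of 0.10, and TIMP2 820.1 and 797 (0.04). The other 2 TIMP2 probe sets went opposite ways, at -0.25 and 0.47. TIMP3, which binds the matrix and also blocks ADAM proteases, gave 83.6 and 72.8 on its brightest probe set (0.20), with 0.11 and -0.22 on 2 others. Its dimmest probe set above the filter gave 10.4 with HOXD9 siRNA-2 and 37.5 with control siRNA. Since 10.4 lies within background, TIMP3 was at least 2.04-fold lower on this one, or at least 1.66-fold after centering on the median, while the other 3 were within 0.22 of 0 as deposited.

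In the plasminogen system, urokinase (PLAU) and its receptor (PLAUR) are the pair that starts plasmin formation at the cell surface. PLAU gave 1161 with HOXD9 siRNA-2 and 1258 with control siRNA (log2 ratio -0.12) and 0.01 on its second probe set. PLAUR gave 1136 and 1305 (-0.20), and its 3 probe sets ran from -0.55 to -0.09. No probe set of either gene was past 2-fold. The PLAUR probe set at -0.55 gave 815 with HOXD9 siRNA-2 and 1196 with control siRNA, or -0.25 after centering on the median. PLAT, the tissue-type activator, stood at 0.22 from signals of 62.7 and 54.0. The serpin SERPINE2, protease nexin-1, gave 2138 and 2267 (-0.08). SERPINH1, the collagen chaperone HSP47, gave 799 and 824 (-0.04).

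ADAM proteases shed membrane proteins and ADAMTS enzymes cut proteoglycans, and here ADAMTS5 had the lowest ratio of its group. ADAMTS5, an aggrecanase that also cuts versican, read lower with HOXD9 siRNA-2 on all 4 probe sets above the filter. Its signals were 277 with HOXD9 siRNA-2 and 496 with control siRNA on the brightest, 153 and 318 on the next, 164 and 291 on another and 36.3 and 42.0 on the dimmest. The log2 ratios were -0.84, -1.06, -0.83 and -0.21, so that 1 of 4 was past 2-fold. After centering on the median these values were -0.54, -0.76, -0.53 and 0.09, none past 2-fold and the dimmest above 0. ADAMTS1, a related versican-cleaving enzyme, gave 396 and 543 (-0.46) and -0.20 on its second probe set.

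Among the ADAM genes, all 5 passed the filter. ADAM12, which is expressed in several tumor types and in its secreted form cuts IGF binding proteins, gave 1564 with HOXD9 siRNA-2 and 2204 with control siRNA (log2 ratio -0.50). Its 5 probe sets were all negative as deposited, from -0.50 to -0.04, but after centering on the median 3 of them were positive, at 0.09, 0.18 and 0.26. A pair of main sheddases read nearly equal on both arrays, ADAM10, the alpha-secretase, at 1574 and 1736 (-0.14) and ADAM17, the TNF-alpha converting enzyme, at 344 and 328 (0.07). ADAM9 stood at -0.17 and ADAM19 at 0.10. Over the 7 genes of this group the median was -0.17.

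The enzymes that crosslink or modify collagen all lay close to 0 as deposited. Lysyl oxidase, LOX, which starts the crosslinking of collagen and elastin, gave 2677 with HOXD9 siRNA-2 and 2588 with control siRNA (log2 ratio 0.05), and its 3 probe sets ran from -0.04 to 0.18. LOXL2 gave 3150.1 and 3158 (-0.00), LOXL1 812 and 786 (0.05) and LOXL3 486 and 512 (-0.07). The lysyl hydroxylases PLOD1 and PLOD2 stood at -0.13 and -0.15. TGM2, tissue transglutaminase, gave 74.5 and 81.0 (-0.12) with 0.04 and 0.40 on its other probe sets above the filter. All 7 genes lay between -0.15 and 0.05, or between 0.15 and 0.35 after centering on the median, and all 7 were above the median of all genes.

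**Figure D2:**
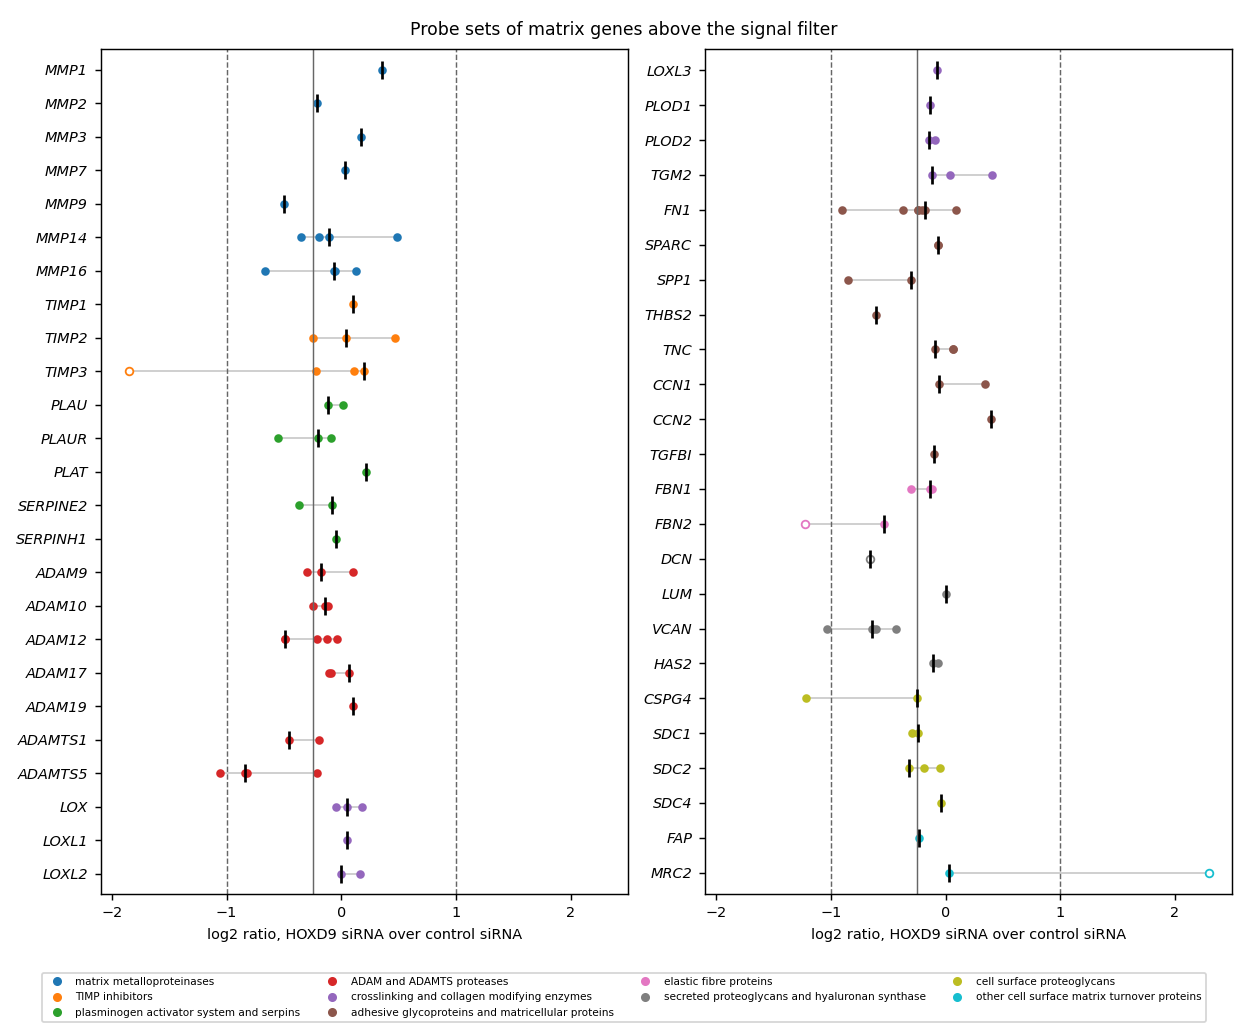
Each point is the log2 ratio (x axis, HOXD9 siRNA over control siRNA) of 1 probe set above the filter for 1 of 49 matrix genes (y axis), colored by role. Open points have 1 signal within background and are drawn at their measured ratio, black ticks mark the brightest probe set, dashed lines 2-fold and the solid line the median of all genes, -0.25. Most points lie between -0.5 and 0.5, and the 6 past 2-fold belong to ADAMTS5, VCAN, CSPG4, FBN2, TIMP3 and MRC2.

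Among the adhesive and matricellular proteins, fibronectin (FN1) was read by 7 probe sets. The brightest gave 7222 with HOXD9 siRNA-2 and 8183 with control siRNA, a log2 ratio of -0.18, and the 3 next in signal gave -0.21 to -0.24. A further probe set gave 787 and 742, a positive log2 ratio of 0.09. The 2 dimmest, which remain when probe sets that can bind several transcripts are left out, gave 65.6 and 123 (-0.91) and 29.2 and 37.7 (-0.37), so the probe sets of FN1 did not share a sign. TGFBI, a secreted integrin ligand induced by TGF-β, gave 7490.4 and 8048 (-0.10). SPARC, a collagen-binding glycoprotein, gave 1753 and 1837 and stood at -0.07 on both of its probe sets. Tenascin-C (TNC), a glycoprotein of the glioma matrix, gave 1985 and 2116 (-0.09), with 0.07 and 0.06 on its other probe sets.

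Osteopontin and thrombospondin-2 had lower ratios as deposited. SPP1, which encodes osteopontin, a ligand of integrins and of CD44, gave 3560.4 with HOXD9 siRNA-2 and 4388 with control siRNA (log2 ratio -0.30) and -0.85 on a dim second probe set, or -0.00 and -0.55 after centering on the median. THBS2 encodes thrombospondin-2, an inhibitor of vessel growth, and its single probe set gave 199 and 303 (-0.61, or -0.31 after centering on the median). The 2 CCN genes on the list are used as readouts of YAP and TEAD activity. CCN2, or connective tissue growth factor, gave 153 and 116 on 1 probe set (0.40, or 0.70 after centering on the median), the highest value among the 49 genes. CCN1 gave 117 and 122 on its brighter probe set (-0.06) and 91.3 and 72.0 on the other (0.34), which do not share a sign.

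Versican read lower on every probe set. VCAN encodes a large hyaluronan-binding proteoglycan, one of the substrates of the ADAMTS enzymes. All 5 of its probe sets were bright and all 5 read lower with HOXD9 siRNA-2. Their signals were 1086 with HOXD9 siRNA-2 and 1694 with control siRNA, 1093 and 1480, 577 and 895, 527 and 802, and 184 and 376. The log2 ratios were -0.64, -0.44, -0.63, -0.60 and -1.03, a mean of -0.67 ± 0.22 (SD over 5 probe sets of 1 pair of arrays, which are no replicates). After centering on the median the values ran from -0.73 to -0.14, so that all 5 stayed negative and none was past 2-fold.

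HAS2, the hyaluronan synthase, gave 72.8 with HOXD9 siRNA-2 and 78.4 with control siRNA (-0.11). The small leucine-rich proteoglycans were dim. LUM gave 34.5 and 34.4 (0.00). DCN gave 17.8 and 28.2 on its only probe set above the filter, and its signal with HOXD9 siRNA-2 was within background. On this probe set DCN was thus at least 1.53-fold lower, or at least 1.24-fold after centering on the median. Its other probe sets lay within background on both arrays. Among the cell surface proteoglycans, the syndecans SDC1, SDC2 and SDC4 stood at -0.24, -0.32 and -0.04. All 6 of their probe sets were negative as deposited, as were 22375 of all 27307 above the filter. After centering on the median, SDC1, SDC2 and SDC4 stood at 0.06, -0.02 and 0.26. CSPG4, also called NG2, a surface proteoglycan of glial progenitors and pericytes, had 2 probe sets that differed. The brighter gave 73.6 and 87.6 (-0.25) and the other 40.4 and 94.1 (-1.22, or -0.92 after centering).

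Fibrillins form the microfibrils on which elastic fibres are built. FBN1 gave 2260.3 with HOXD9 siRNA-2 and 2488 with control siRNA (log2 ratio -0.14) and ran from -0.31 to -0.12 over 3 probe sets. FBN2 gave 197 and 287 (-0.54) and on its dimmer probe set 12.7 and 29.7, at least 1.62-fold lower. FAP, a cell surface serine protease of activated fibroblasts, gave 195 and 229 (-0.23). MRC2, an endocytic collagen receptor, gave 298 and 292 on its brighter probe set (0.03). On the dimmer one it gave 51.9 with HOXD9 siRNA-2 and 10.6 with control siRNA, at least 2.82-fold higher, so the only probe set past 2-fold upward is not matched by the brighter one of the same gene.

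**Figure D3:**
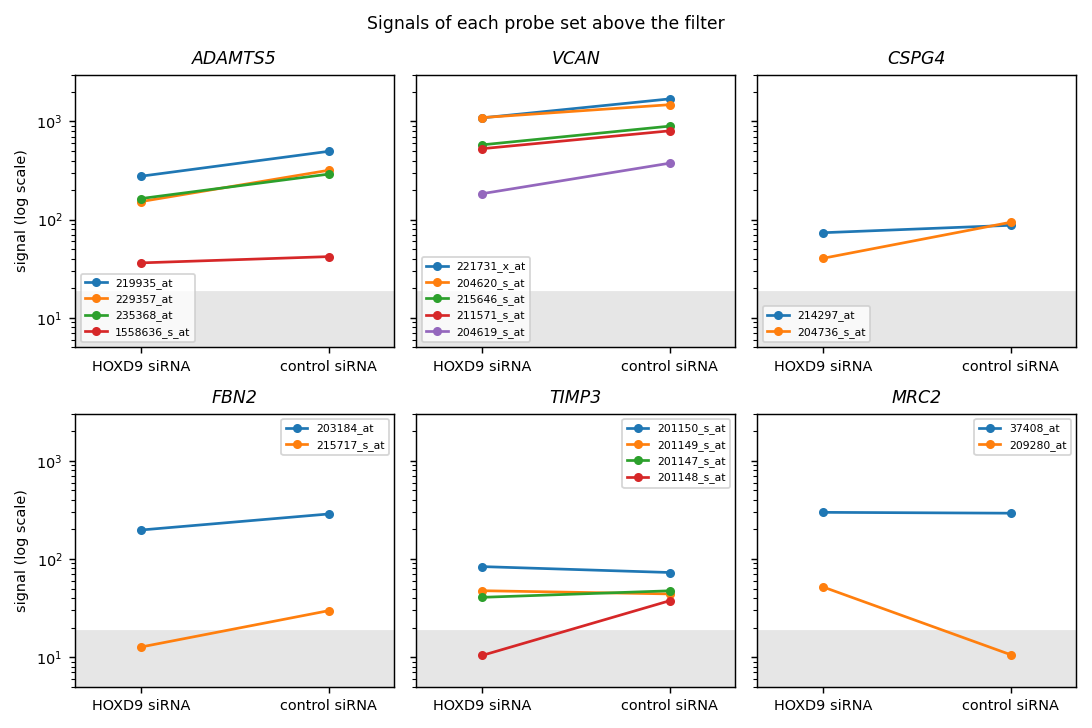
Signals (y axis, log scale) of every probe set above the filter are shown for the 6 matrix genes with a probe set past 2-fold, with HOXD9 siRNA on the left and control siRNA on the right of each panel. The gray area marks signals up to the background of 18.4. All lines of ADAMTS5 and VCAN are higher in control siRNA-transfected cells, whereas in TIMP3 and MRC2 a single line leaves the others and ends within background.

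Counted by probe sets, 108 of the 149 passed the filter, and by measured ratio 5 were lower and 1 was higher by more than 2-fold, against 6.69% lower and 0.615% higher among all 27307 that passed. The 5 were 1 each of ADAMTS5, VCAN, CSPG4, FBN2 and TIMP3, and the 1 was of MRC2. FBN2 did not pass 2-fold when taken against background. After centering on the median only the TIMP3 probe set stayed past 2-fold downward, through a measured ratio (-1.55) whose bound was 1.66-fold, while MRC2 was past it upward. Among 30 matrix genes read by several such probe sets, 5 had at least 1 that was lower by more than 2-fold, against 14.7% of 6081 genes, and in 16 every one was negative, against 62.8%. The 5 and the 16 genes were 16.7% and 53.3% of the 30, close to and under the shares of all genes. None of the 30 was past 2-fold on all of its probe sets. This was rare among all 6081 genes too, with 63 lower and 0 higher on every one.

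The other 7 genes had no probe set above the filter. They were THBS1, POSTN, NID1, FBLN1, ELN, BGN and HSPG2, which encode thrombospondin-1, periostin, nidogen-1, fibulin-1, elastin, biglycan and perlecan. THBS1 was read by 7 probe sets, of which the brightest gave 18.5 with HOXD9 siRNA-2 and 14.8 with control siRNA. FBLN1 reached 17.8 with HOXD9 siRNA-2 and 19.6 with control siRNA on the brightest of 5. All other signals of the 7 genes lay within background, so no fold difference is given. The 5 genes other than THBS1 and FBLN1 gave no signal above 18.4, a background read on the HOXD9 siRNA array. On the control siRNA array, ELN (15.9), POSTN (15.2) and BGN (12.0) exceeded the 11.4 reached there by the Bacillus subtilis controls, and NID1 and HSPG2 did not. In all, 41 probe sets of the matrix genes fell below the filter, 37 of them within background on both arrays. By measured ratio 7 of the 41 were lower past 2-fold and 9 higher, against 30.9% and 20.4% of all 27306 probe sets below the filter, so ratios of this size were common at such signals.

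**Figure D4:**
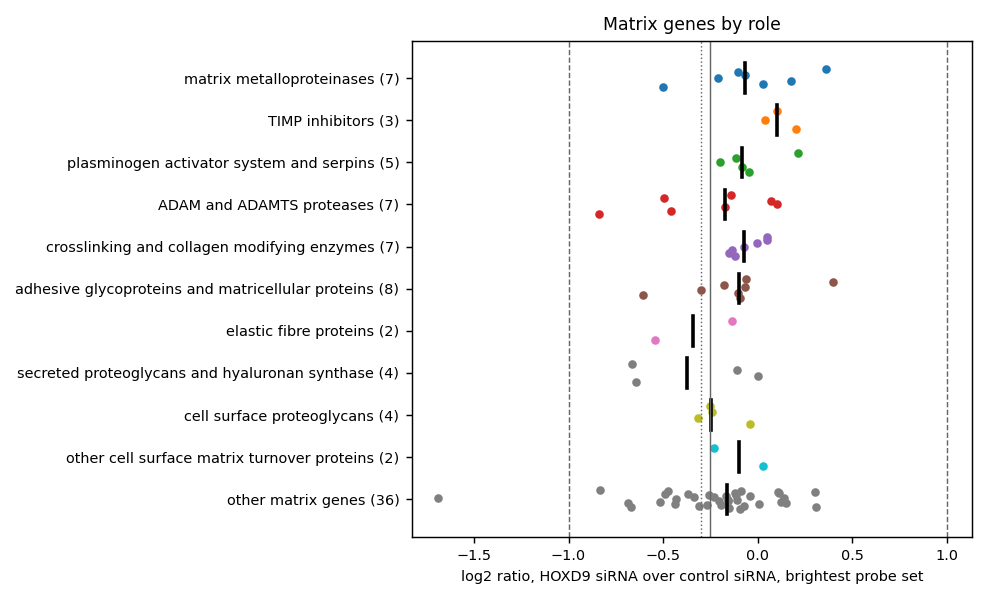
Each point is the log2 ratio of 1 gene on its brightest probe set (x axis, HOXD9 siRNA over control siRNA) by role (y axis, number of genes in brackets), with black bars for group medians. The solid line marks the median of all genes, the dotted line the place of 0 once each array is centered on its median, and dashed lines 2-fold. All TIMP inhibitors (median 0.10) and crosslinking enzymes (-0.07) lie right of the solid line. The medians of the secreted proteoglycans with hyaluronan synthase (-0.37) and of the elastic fibre genes (-0.34) lie left of it. In these groups 2 of 4 genes and 1 of 2 genes lie right of it. FURIN is the only point past 2-fold.

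Other genes of matrix turnover gave a like picture. Of 53 further matrix proteases, inhibitors, modifying enzymes, glycoproteins and proteoglycans, 36 passed the filter, 1 was lower and none higher by more than 2-fold, and their median was -0.16. The 1 was FURIN, a proprotein convertase that activates MMP14 and several ADAM proteases. Its single probe set gave 30.1 with HOXD9 siRNA-2 and 97.4 with control siRNA, a log2 ratio of -1.69, or -1.39 after centering on the median.

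The promoters of the matrix genes were read from RefSeq (GRCh38.p14), from 250 bases before to 50 bases after each start, for 36 of the 56 genes with 43 entries. They are shown for the 2 lowest and the 1 highest of the genes above background that had an entry, VCAN, THBS2 and CCN2, chosen after their values were seen. Capitals mark matches to the TEAD site GGAATG and to the TATA box TATAAA on either strand. VCAN lies at chr5:83471494-83471793 on the plus strand, THBS2 at chr6:169253797-169254096 and CCN2 at chr6:131951323-131951622, both on the minus strand.
VCAN: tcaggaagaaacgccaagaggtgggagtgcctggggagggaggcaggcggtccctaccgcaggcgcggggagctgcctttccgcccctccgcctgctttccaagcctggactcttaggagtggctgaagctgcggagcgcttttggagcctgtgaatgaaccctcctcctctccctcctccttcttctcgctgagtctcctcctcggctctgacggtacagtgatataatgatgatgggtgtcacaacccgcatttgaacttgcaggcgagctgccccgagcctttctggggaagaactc
THBS2: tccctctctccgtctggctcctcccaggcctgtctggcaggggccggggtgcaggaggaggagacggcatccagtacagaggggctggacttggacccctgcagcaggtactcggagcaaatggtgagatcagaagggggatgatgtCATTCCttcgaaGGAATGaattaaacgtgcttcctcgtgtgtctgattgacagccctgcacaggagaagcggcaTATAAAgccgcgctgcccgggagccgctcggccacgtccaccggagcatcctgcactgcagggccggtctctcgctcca
CCN2: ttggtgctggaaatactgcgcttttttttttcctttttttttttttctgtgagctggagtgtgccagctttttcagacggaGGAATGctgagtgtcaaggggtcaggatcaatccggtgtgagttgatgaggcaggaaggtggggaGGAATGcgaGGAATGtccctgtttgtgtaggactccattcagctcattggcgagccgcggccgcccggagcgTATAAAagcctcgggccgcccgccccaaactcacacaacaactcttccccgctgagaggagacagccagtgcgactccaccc

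CCN2 held 3 TEAD matches, at -169, -104 and -95 from the start, and THBS2 held 2 on opposite strands at -103 and -91. Both held a TATA box match, at -32 in CCN2 and at -29 in THBS2, and the VCAN window held none of the motifs searched. Over the 43 entries, 7 held GGAATG (16.3%, against 14% of 35116 promoters of the table) and 4 TATAAA (9.3% against 11.5%). The AP-1 site TGANTCA was held by 3 (6.98% against 7.71%), those of MMP7, PLAUR and POSTN. Genes without an entry include MMP1, MMP2, MMP3, MMP9, MMP16 and ADAMTS5, so these shares do not cover them. The sequence TTTATNG, a form that posterior HOX proteins bind, was held by the TNC entry alone (2.33% against 9.73%), and the matrix gene windows had a median GC content of 68.0% against 58.7%. These matches are letters in a window and were not tested as binding sites.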

How the data were processed

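The authors deposited 1 linear signal intensity for each probe set on each array, read in U87 cells transfected with HOXD9 siRNA-2 or control siRNA (1 array each). The submitters' processing notes name GCOS; how the signals were scaled was not stated in the paper or labels, so a difference in array scale would shift every ratio alike. From the deposited intensities, log2 ratios were taken for 54613 probe sets, leaving out 62 controls. Names came from the platform annotation (41091 probe sets with 1 gene, 1801 with several, 11721 unlisted), updated by Entrez number through the RefSeq gene table of GRCh38.p14 (41037 matched). A gene took its brightest probe set with a mean signal of 19.8 or more. A ratio with 1 signal not above 18.4 is given as a bound against 18.4. The number of arrays limits the precision. The genes, lists and motifs were chosen with earlier results of these data known. Signals or log2 ratios are given for every member above the filter, for all its probe sets above the filter where any was past 2-fold, and for other matrix genes past 2-fold. For 2 other listed genes no value is reported here. The alternatives were centering on the median, one trimmed mean (2% off each end), quantile normalization, loess (fraction 0.3), no filter, a filter at the 70th percentile (75.7), signals raised to background, leaving out _x_at and _s_at probe sets, and averaging probe sets. The procedure was tested on simulated data. Python 3.11.15, numpy 2.4.6, pandas 2.3.3, statsmodels 0.14.6 and matplotlib 3.10.9 were used.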

Additional observations from a re-analysis of the deposited data

How the results depend on the processing

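No matrix gene was past 2-fold under centering on the median, one trimmed mean, quantile normalization, loess, the filter at the 70th percentile, signals raised to background or the omission of _x_at and _s_at probe sets. Without a filter 1 was lower (POSTN) and 1 higher (HSPG2), both within background on both arrays, and 1 was higher when probe sets were averaged (MRC2). The median of the matrix genes, -0.10, was 0.20 after centering, 0.17 with one trimmed mean, 0.12 after quantile normalization and 0.12 after loess, a change that the scaling itself makes. Its distance above the median of all genes was 0.15 as deposited and 0.10 to 0.17 under the alternatives. Over all genes, 575 lower and 60 higher became 268 and 136 after centering, 282 and 127 with one trimmed mean, 260 and 146 after quantile normalization and 261 and 144 after loess. They were 3114 and 1766 without a filter and 210 and 0 with the 70th percentile filter, which test more and fewer genes, and 29 were higher with signals raised to background. Single genes that moved by more than the pooled SD of probe sets, 0.41, were TIMP3 (-0.44), CSPG4 (-0.74) and MRC2 (1.16) when probe sets were averaged, and FN1 (-0.91) without _x_at and _s_at probe sets. No paired analysis was possible because each condition has 1 array.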

Other observations

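Some of the matrix genes lie next to each other in the genome. ADAMTS1 and ADAMTS5 are neighboring coding genes on chromosome 21. All 6 of their probe sets above the filter had negative log2 ratios as deposited, as had 22375 of all 27307. Those of ADAMTS1 and ADAMTS5 ran from -1.06 to -0.20 (from -0.76 to 0.10 after centering on the median). MMP1 and MMP3 are neighbors on chromosome 11 and stood at 0.36 and 0.17, with MMP7 at 0.03 separated from MMP1 by 4 coding genes. MMP1 and MMP7 were dim. After centering on the median MMP3 stood at 0.47. On that scale the control siRNA signals of MMP1 and MMP7 fell within background, and these genes were at least 1.345-fold and 1.18-fold higher. DCN and LUM are neighbors on chromosome 12, where DCN was at least 1.53-fold lower and LUM stood at 0.00, each on its only probe set above the filter. After centering on the median, DCN was at least 1.24-fold lower and LUM stood at 0.30.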
